A study of Mus musculus with 12 samples.

Results

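The genes described here carry glucose into the cell, break it down to pyruvate, turn pyruvate into lactate and export it, or store it as glycogen. They are 35 genes chosen by name: glucose transporters and hexokinases, the enzymes of the upper and lower steps of glycolysis, the enzymes that set fructose-2,6-bisphosphate, lactate dehydrogenases and lactate transporters, pyruvate dehydrogenase kinases, and enzymes of glycogen. The array gave 31 of the 35 a transcript cluster (the set of probes summarised into a value) with exactly 1 gene symbol, out of 19938 genes measured in that way. Gpi1, Pfkfb1 and Eno1 had none, and Gapdh appeared only in 25 clusters that also name other genes.

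Gene expression was measured in fibro/adipogenic progenitors (FAPs), the mesenchymal cells that lie between muscle fibres, taken from uninjured hindlimb muscle of wild-type male C57 mice aged 8 to 12 weeks and kept in culture. Cells grew for 2.5 days, received an antisense oligonucleotide (AMO in the labels) at 10 µM for 48 hours, and then received the AMO at 10 µM again for 48 hours, with the growth factor PDGF-AA at a dose the labels give as 50 uM or without it. The control AMO served as the reference, the pA AMO was directed to an intronic polyadenylation site of Pdgfra, and the 5'ss AMO to an intronic 5' splice site of the same gene, which encodes the receptor for PDGF-AA. The 6 groups, all of wild-type cells that carried an AMO, were the control AMO, the pA AMO and the 5'ss AMO, each without and with PDGF-AA, and every group had 2 arrays made from 100 ng of RNA. Each replicate pooled cells of 2 mice, so an array stands for a pooled culture and not for an animal, and no group went without an AMO.

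Glycolysis splits glucose into pyruvate in the cytosol and yields ATP without oxygen. Where pyruvate goes next depends on lactate dehydrogenase, which turns it into lactate, and on the pyruvate dehydrogenase complex. That complex commits pyruvate to oxidation in the mitochondria and is switched off by the pyruvate dehydrogenase kinases. Growth factors that act through receptor tyrosine kinases and the factor HIF-1, which is stabilised when oxygen is low, are both known to raise transcription of many of these enzymes.

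Values are on the log2 scale, so a difference of 1 is a doubling, and they ran from 1.36 to 14.1 over all arrays. Of the 31 genes, 30 had a mean above 6.10, the level below which the dimmest 40% of clusters lay. The exception was Pgam2, the muscle form of phosphoglycerate mutase. Pdgfra stayed between 12.7 and 12.9 in every array, a summary value that does not tell forms of its transcript apart. All 12 FAP markers measured (Pdgfra and Dcn among them) were above 6.10. Markers of other cells were also read: 19 of 21 myogenic, 10 of 11 adipocyte, 3 of 8 endothelial and 3 of 8 macrophage genes were above it. Among those below it were Pecam1 (mean 5.57) of the endothelial list, and Ptprc (5.01), a gene of leukocytes in general, and Adgre1 (4.12) of the macrophage list. In bulk RNA, fewer cells of a kind and less RNA per cell cannot be told apart. Differences are given with the standard error (SE) of limma's moderated fit of all 6 groups, and adjusted p-values are Benjamini-Hochberg values over 21789 clusters.

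Averaged over the 3 AMOs, most of these genes had a higher level with PDGF-AA. The difference was above 0 in 24 of 31 genes, with a median of 0.16. Over all 19938 genes, 51.1% were above 0 and the median was 0.00. An unadjusted limma p under 0.05 and a higher level were found for 16 of the 31 genes, where 1.73% of all clusters met the same rule. When arrays were centred on their medians that count was 12, against 1.04% of all clusters. The same rule with a lower level was met by 0 of the 31, against 1.66% of all clusters. After adjustment over all clusters 0 genes passed 0.05 in limma, while 738 clusters had an unadjusted p under 0.05, and the smallest adjusted p was 0.322 among the 31 and 0.294 among all clusters. Within the replicates taken one at a time, the median difference was 0.19 in replicate 1 and 0.11 in replicate 2, and it was above 0 in both replicates for 20 genes and below 0 in both for 4. Those shares compare with 28.1% and 28.4% of all clusters.

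Arrays with the same replicate number resembled each other across groups, so the replicate number was entered as a block in a paired fit. At an unadjusted p under 0.05 it had 17 of the 31 genes higher, against 4.09% of all clusters. Lower in it were 0, against 3.93%. There Slc16a3, the lactate exporter MCT4, passed with an adjusted p of 0.0481, 1 of 21 clusters that did (0.0964% of all). Leaving out any of the 12 arrays ended that call, with adjusted p-values from 0.0639 to 0.208. A moderation of the spread that allows for its trend with intensity and for outlying genes called 5 of the 31 genes higher, namely Slc16a3, Pgk1, Pfkl, Aldoa and Tpi1, where 0.0964% of all clusters were called higher. In that fit Pgk1 was still called without any 1 of the 12 arrays, and Slc16a3 was called in 11 of those 12 fits, the exception being the one without replicate 2 of the control AMO without PDGF-AA. The other calls were mostly lost: Pfkl and Aldoa were called in 2 of the 12 fits each and Tpi1 in 1. Over the 12 fits the number of the 31 genes called varied. It was smallest in the fit with the fewest of all clusters called and largest in the fit with the most.

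**Figure D1:**
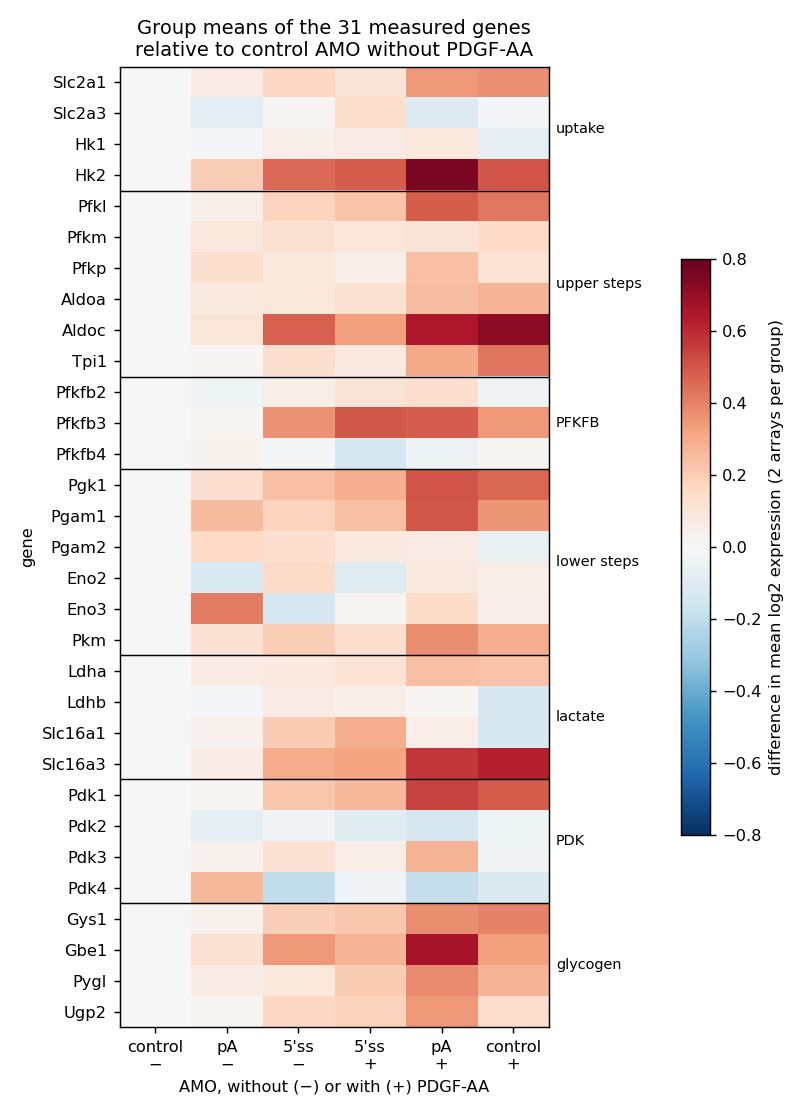
Heat map of the 31 genes (rows, by role) in the 6 groups (columns), with colour giving the group's mean log2 level of 2 arrays minus that of the control AMO without PDGF-AA. The control AMO with PDGF-AA and the pA AMO with PDGF-AA hold the strongest positive colours, led by Hk2 at 0.76 in the latter and Aldoc at 0.72 in the former, and Slc2a3, Hk1 and Pdk2 stay near 0.

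The start sites of these genes were searched for ACGTG, the core letters of the element that HIF-1 binds, on both strands within the 250 bases before each RefSeq start (GRCm38.p6). It was found in 20 of 45 promoters of the measured genes (44.4%), which belong to 16 of the 30 genes with an entry. Among all 32851 promoters of that length the share was 16.6%, and among those with a GC content at or above the genes' median of 60.4% it was 22.9%. The 16 genes with an unadjusted p under 0.05 had it in 12 of 23 promoters (52.2%), the other genes in 8 of 22 (36.4%). Of those 16, Aldoc, Pfkl, Tpi1, Pdk1, Gys1 and Gbe1 had no match in any listed promoter. A match is a description of letters and not a bound site, and no match says only that these letters are not in this window. The promoters below, all with matches, are shown for the pair of lactate transporters with unequal PDGF-AA values and for the kinases Pgk1 and Hk2, with ACGTG or its reverse complement CACGT in capitals, reading toward the gene. CACGTG in the Slc16a1 promoter counts as a match on each strand, the pair overlapping. Slc16a3 is at chr11:120948817-120949066 (plus strand), Slc16a1 at chr3:104638414-104638663 (plus), Pgk1 at chrX:106186850-106187099 (plus) and Hk2 at chr6:82774455-82774704 (minus).
Slc16a3: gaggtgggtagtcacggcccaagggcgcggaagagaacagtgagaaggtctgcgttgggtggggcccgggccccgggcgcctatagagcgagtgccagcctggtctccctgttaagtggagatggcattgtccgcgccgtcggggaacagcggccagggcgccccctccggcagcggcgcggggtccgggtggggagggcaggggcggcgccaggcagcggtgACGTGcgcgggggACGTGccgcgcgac
Slc16a1: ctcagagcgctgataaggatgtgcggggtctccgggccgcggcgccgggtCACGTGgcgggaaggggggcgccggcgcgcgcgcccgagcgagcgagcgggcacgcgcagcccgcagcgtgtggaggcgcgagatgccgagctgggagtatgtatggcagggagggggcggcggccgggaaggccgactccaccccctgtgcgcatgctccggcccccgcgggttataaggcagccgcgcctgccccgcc
Pgk1: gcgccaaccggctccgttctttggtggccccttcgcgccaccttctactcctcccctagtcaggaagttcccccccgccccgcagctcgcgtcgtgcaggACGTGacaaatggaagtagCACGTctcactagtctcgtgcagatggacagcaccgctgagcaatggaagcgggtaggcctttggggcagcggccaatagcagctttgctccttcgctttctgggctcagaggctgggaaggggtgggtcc
Hk2: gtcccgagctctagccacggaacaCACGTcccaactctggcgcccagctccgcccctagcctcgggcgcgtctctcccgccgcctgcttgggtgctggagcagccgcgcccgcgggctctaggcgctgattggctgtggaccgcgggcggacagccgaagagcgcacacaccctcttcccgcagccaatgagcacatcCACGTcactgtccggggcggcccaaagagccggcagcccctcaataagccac
The matches lie 27 and 14 bases before the start in Slc16a3, 200 and 199 in Slc16a1, 150 and 131 in Pgk1, and 226 and 52 in Hk2. Both transporters hold matches, while the PDGF-AA difference averaged over AMOs was 0.38 for Slc16a3 and -0.01 for Slc16a1.

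Among the lactate genes, Slc16a3 encodes MCT4, the transporter that glycolytic cells use to release lactate. Slc16a3 without PDGF-AA measured 9.50 and 9.47 with the control AMO, 9.52 and 9.58 with the pA AMO, and 9.76 and 9.80 with the 5'ss AMO. With PDGF-AA, Slc16a3 measured 10.12 and 10.09 with the control AMO, 10.18 and 9.92 with the pA AMO, and 9.83 and 9.78 with the 5'ss AMO. With the control and the pA AMO, both arrays with PDGF-AA lay above both without it, while with the 5'ss AMO they overlapped. The 5'ss arrays without PDGF-AA already lay above the other 4 arrays without PDGF-AA. The averaged difference was 0.38 (SE 0.06; adjusted p = 0.322 in limma), made of 0.62 with the control AMO, 0.50 with the pA AMO and 0.02 with the 5'ss AMO (SE 0.10 each).
Ldha encodes the subunit of lactate dehydrogenase that favours lactate formation. Ldha without PDGF-AA measured 12.46 and 12.42 with the control AMO, 12.53 and 12.49 with the pA AMO, and 12.51 and 12.52 with the 5'ss AMO. With PDGF-AA, Ldha measured 12.70 and 12.63 with the control AMO, 12.76 and 12.60 with the pA AMO, and 12.58 and 12.51 with the 5'ss AMO. The arrays separated by PDGF-AA with the control and pA AMOs and overlapped with the 5'ss AMO. The averaged difference was 0.14 (SE 0.05).
The other lactate genes had small differences. Ldhb, the subunit that favours the way back to pyruvate, had an averaged difference of -0.04 (SE 0.06), and its second cluster gave -0.09. Slc16a1 encodes MCT1, which can carry lactate in or out. Slc16a1 without PDGF-AA measured 10.21 and 10.34 with the control AMO, 10.28 and 10.34 with the pA AMO, and 10.46 and 10.51 with the 5'ss AMO. With PDGF-AA, Slc16a1 measured 10.07 and 10.23 with the control AMO, 10.19 and 10.46 with the pA AMO, and 10.70 and 10.43 with the 5'ss AMO. The highest of the 12 arrays was replicate 1 of the 5'ss AMO with PDGF-AA, and with and without PDGF-AA the arrays overlapped under every AMO. Its differences were -0.13 with the control AMO, 0.02 with the pA AMO and 0.08 with the 5'ss AMO (SE 0.13 each).

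For glucose uptake and its trapping, Hk2 encodes the inducible hexokinase, which traps glucose in the cell as glucose-6-phosphate. Hk2 without PDGF-AA measured 8.43 and 8.03 with the control AMO, 8.42 and 8.44 with the pA AMO, and 8.73 and 8.64 with the 5'ss AMO. With PDGF-AA, Hk2 measured 8.82 and 8.64 with the control AMO, 9.12 and 8.85 with the pA AMO, and 8.61 and 8.81 with the 5'ss AMO. The control arrays without PDGF-AA were far apart for this gene, and replicate 2 was the lowest of the 12. The PDGF-AA difference was 0.50 with the control AMO, 0.56 with the pA AMO and 0.03 with the 5'ss AMO (SE 0.15 each), with an averaged value of 0.36 (SE 0.09; adjusted p = 0.537 in limma).
Slc2a1 encodes GLUT1, the glucose transporter of most cultured cells. Slc2a1 without PDGF-AA measured 11.22 and 11.29 with the control AMO, 11.23 and 11.40 with the pA AMO, and 11.33 and 11.51 with the 5'ss AMO. With PDGF-AA, Slc2a1 measured 11.60 and 11.64 with the control AMO, 11.64 and 11.56 with the pA AMO, and 11.32 and 11.39 with the 5'ss AMO. The arrays did not overlap with the control and pA AMOs and overlapped with the 5'ss AMO. Its differences were 0.37 with the control AMO, 0.28 with the pA AMO and -0.06 with the 5'ss AMO (SE 0.11 each).
Slc2a3, which encodes the transporter GLUT3, had an averaged difference of 0.03 (SE 0.08). For Hk1, the constitutive hexokinase, the value depends on the cluster. The brighter cluster gave 0.02 (SE 0.07), but its only annotated transcript is also held by 16 clusters that name both Hk1 and the ribosomal protein gene Rpl17. The other cluster gave 0.18 (SE 0.05), with 0.29, 0.27 and -0.02 with the control, pA and 5'ss AMOs.

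In the upper steps of glycolysis all 6 genes measured had an averaged difference above 0, with a median of 0.19. Aldoc encodes aldolase C, which cleaves fructose-1,6-bisphosphate. Aldoc without PDGF-AA measured 7.58 and 7.36 with the control AMO, 7.47 and 7.67 with the pA AMO, and 7.86 and 8.03 with the 5'ss AMO. With PDGF-AA, Aldoc measured 8.10 and 8.28 with the control AMO, 8.23 and 7.99 with the pA AMO, and 7.80 and 7.80 with the 5'ss AMO. It was the member whose arrays separated in opposite directions: both arrays with PDGF-AA were above those without it under the control and pA AMOs, and below them under the 5'ss AMO. Taken singly, such separations are common with 2 arrays per group. They were seen upward in 17.5% and 11.4% of all clusters under the control and pA AMOs, and downward in 10.5% under the 5'ss AMO. The share of clusters that separate in opposite directions was not counted. The Aldoc difference with the control AMO, 0.72 (SE 0.13), corresponds to 1.65-fold and was the largest of the 31. The values with the other AMOs were 0.55 and -0.14, and the averaged one was 0.37 (SE 0.08; adjusted p = 0.365 in limma).
Pfkl encodes the liver-type subunit of phosphofructokinase, the committing step of glycolysis. Pfkl without PDGF-AA measured 9.81 and 9.88 with the control AMO, 9.77 and 10.01 with the pA AMO, and 9.94 and 10.11 with the 5'ss AMO. With PDGF-AA, Pfkl measured 10.19 and 10.35 with the control AMO, 10.35 and 10.31 with the pA AMO, and 10.08 and 10.06 with the 5'ss AMO. Under the 5'ss AMO both arrays with PDGF-AA fell between the pair without it. The differences were 0.43 with the control AMO, 0.44 with the pA AMO and 0.05 with the 5'ss AMO (SE 0.11 each). The averaged differences of the other phosphofructokinase subunits were 0.05 for Pfkm and 0.06 for Pfkp.
Aldoa, the aldolase common to most tissues, had an averaged difference of 0.16 (SE 0.05). Tpi1, the enzyme that interconverts the triose phosphates, had 0.22 (SE 0.06), from 0.43 with the control AMO, 0.29 with the pA AMO and -0.05 with the 5'ss AMO.

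Pfkfb3 makes fructose-2,6-bisphosphate, the metabolite that activates phosphofructokinase, with little of the reverse activity. Pfkfb3 without PDGF-AA measured 7.95 and 8.01 with the control AMO, 7.88 and 8.12 with the pA AMO, and 8.25 and 8.42 with the 5'ss AMO. With PDGF-AA, Pfkfb3 measured 8.19 and 8.46 with the control AMO, 8.50 and 8.43 with the pA AMO, and 8.39 and 8.56 with the 5'ss AMO. The arrays separated by PDGF-AA with the control and pA AMOs, and the highest of all 12 was a 5'ss array with PDGF-AA. Differences were 0.34 with the control AMO, 0.46 with the pA AMO and 0.14 with the 5'ss AMO (SE 0.13 each); the 5'ss arrays were among the higher ones without PDGF-AA as well.
Pfkfb4 is a relative that works in both directions. Pfkfb4 without PDGF-AA measured 6.66 and 6.81 with the control AMO, 6.73 and 6.79 with the pA AMO, and 6.68 and 6.76 with the 5'ss AMO. With PDGF-AA, Pfkfb4 measured 6.82 and 6.68 with the control AMO, 6.64 and 6.73 with the pA AMO, and 6.57 and 6.62 with the 5'ss AMO. Its values spanned a narrow range, and the arrays with PDGF-AA lay lower under both Pdgfra AMOs. Averaged over AMOs, the differences were -0.06 (SE 0.06) for Pfkfb4 and 0.07 (SE 0.09) for Pfkfb2.

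In the lower steps of glycolysis, Pgk1 encodes phosphoglycerate kinase, which makes the first ATP of the pathway. Pgk1 without PDGF-AA measured 11.94 and 11.84 with the control AMO, 11.96 and 12.07 with the pA AMO, and 12.12 and 12.13 with the 5'ss AMO. With PDGF-AA, Pgk1 measured 12.39 and 12.31 with the control AMO, 12.46 and 12.32 with the pA AMO, and 12.16 and 12.20 with the 5'ss AMO. It was the 1 gene of the 31 whose 6 arrays with PDGF-AA all lay above its 6 arrays without it, a separation seen upward in 0.165% of all clusters. The averaged difference was 0.30 (SE 0.06, adjusted p = 0.342 in limma), from 0.46 with the control AMO, 0.37 with the pA AMO and 0.05 with the 5'ss AMO. The 2 further Pgk1 clusters gave 0.29 and 0.30. Their means of 12.13 and 12.16 nearly match the 12.16 of the cluster used, so they are not taken as independent readings.
Pgam1 encodes the common phosphoglycerate mutase. Pgam1 without PDGF-AA measured 11.79 and 11.66 with the control AMO, 11.90 and 12.06 with the pA AMO, and 11.92 and 11.89 with the 5'ss AMO. With PDGF-AA, Pgam1 measured 12.07 and 12.09 with the control AMO, 12.27 and 12.17 with the pA AMO, and 12.05 and 11.88 with the 5'ss AMO. Under the pA AMO its arrays without PDGF-AA were already above those of the control AMO, and those with PDGF-AA were higher again. The differences were 0.35 with the control AMO, 0.24 with the pA AMO and 0.06 with the 5'ss AMO (SE 0.10 each). Its 2 other clusters hold identical values with an averaged difference of 0.21, and are not independent readings.
Pkm, which encodes the muscle-type pyruvate kinase made by most growing cells, had an averaged difference of 0.16 (SE 0.06), and its second cluster gave 0.19. Gapdh could be read only through the 25 shared clusters, where the averaged difference ran from 0.06 to 0.10 and was above 0 in all 25.
The tissue-restricted forms were close to 0. Averaged differences were -0.07 for Pgam2, -0.02 for the muscle enolase Eno3 and 0.00 for the neuronal enolase Eno2. The value for Eno2 turns to -0.01 when arrays are centred on their medians.

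The pyruvate dehydrogenase kinases switch off the pyruvate dehydrogenase complex, and Pdk1 is a known HIF-1 target. Pdk1 without PDGF-AA measured 8.94 and 9.17 with the control AMO, 8.93 and 9.23 with the pA AMO, and 9.21 and 9.34 with the 5'ss AMO. With PDGF-AA, Pdk1 measured 9.44 and 9.65 with the control AMO, 9.62 and 9.58 with the pA AMO, and 9.31 and 9.33 with the 5'ss AMO. Arrays separated with the control and pA AMOs, and under the 5'ss AMO those with PDGF-AA lay within the pair without it. Its differences were 0.49 with the control AMO, 0.52 with the pA AMO and 0.04 with the 5'ss AMO (SE 0.13 each), averaging 0.35 (SE 0.08; adjusted p = 0.407 in limma).
Pdk4 is the kinase associated with fasting and fat oxidation. Pdk4 without PDGF-AA measured 8.37 and 8.81 with the control AMO, 8.68 and 9.01 with the pA AMO, and 8.15 and 8.63 with the 5'ss AMO. With PDGF-AA, Pdk4 measured 8.18 and 8.77 with the control AMO, 8.03 and 8.77 with the pA AMO, and 8.51 and 8.62 with the 5'ss AMO. Replicate 1 was below replicate 2 in all 6 groups, and the arrays overlapped under every AMO. The averaged difference was -0.13 (SE 0.16, and 0.08 in the paired fit). With the pA AMO it was -0.65 in replicate 1 and -0.24 in replicate 2, with an adjusted p of 1 in limma and 0.652 in the paired fit. Pdk2 differed by -0.06 (SE 0.07) and Pdk3 by 0.05 (SE 0.07), so within the family only Pdk1 had an unadjusted p under 0.05 in the averaged limma comparison.

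The 4 genes of glycogen all had an averaged difference above 0, with a median of 0.24. Gys1 encodes the glycogen synthase of muscle and most other tissues. Gys1 without PDGF-AA measured 9.78 and 9.68 with the control AMO, 9.70 and 9.82 with the pA AMO, and 9.84 and 10.00 with the 5'ss AMO. With PDGF-AA, Gys1 measured 10.10 and 10.16 with the control AMO, 10.17 and 10.02 with the pA AMO, and 9.94 and 9.94 with the 5'ss AMO. With the control and pA AMOs the arrays with PDGF-AA were the higher ones, and with the 5'ss AMO they fell between the pair without it. The averaged difference was 0.25 (SE 0.06; adjusted p = 0.537 in limma).
Gbe1 encodes the branching enzyme. Gbe1 without PDGF-AA measured 8.78 and 8.61 with the control AMO, 8.70 and 8.93 with the pA AMO, and 8.97 and 9.12 with the 5'ss AMO. With PDGF-AA, Gbe1 measured 9.02 and 9.04 with the control AMO, 9.44 and 9.27 with the pA AMO, and 8.83 and 9.11 with the 5'ss AMO. The highest arrays were those of the pA AMO with PDGF-AA, and the 5'ss arrays overlapped. Differences were 0.33 with the control AMO, 0.54 with the pA AMO and -0.08 with the 5'ss AMO (SE 0.13 each). Pygl, the liver-type phosphorylase that breaks glycogen down, averaged 0.23 (SE 0.07), and Ugp2, which makes the UDP-glucose used for synthesis, averaged 0.16 (SE 0.08).

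**Figure D2:**
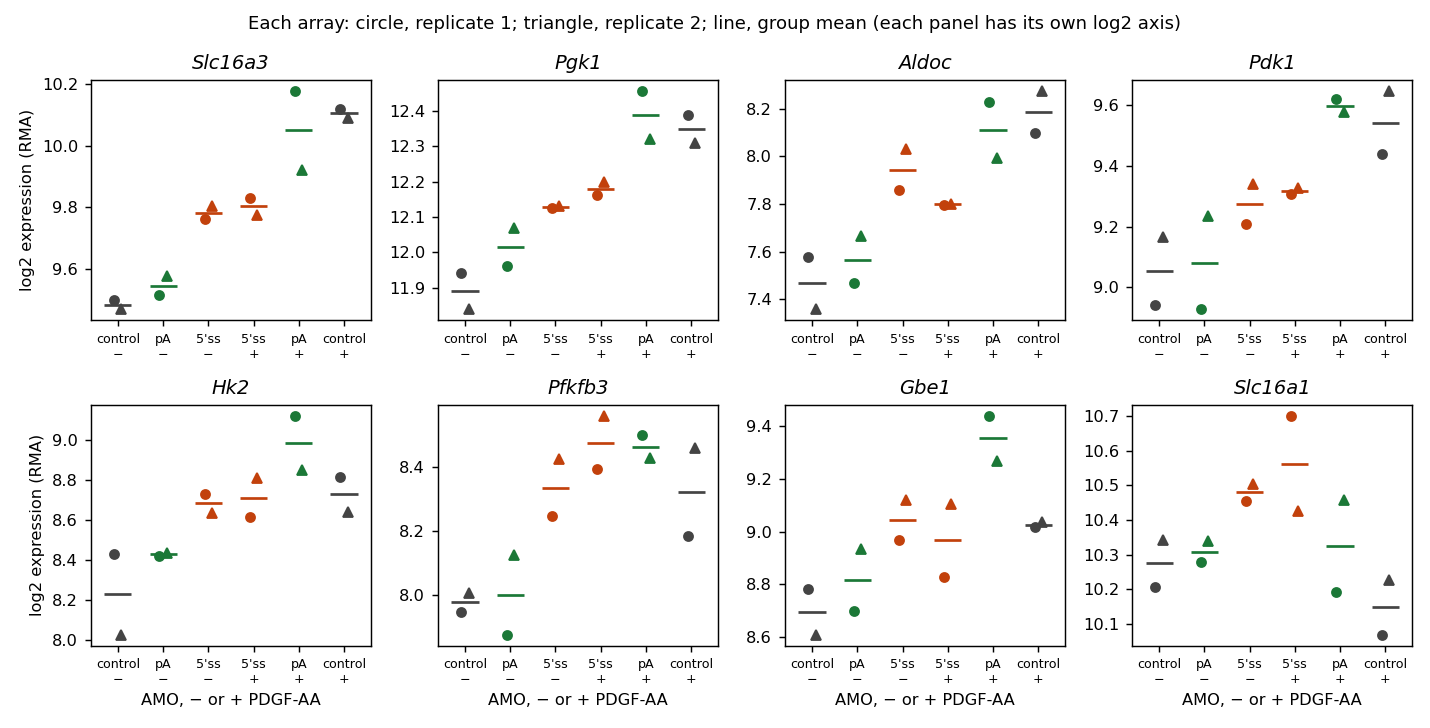
Log2 level of 8 genes on each of the 12 arrays by group, with a circle for replicate 1, a triangle for replicate 2 and a line for the mean. Slc16a3, Pgk1, Aldoc and Pdk1 sit higher with PDGF-AA under the control and pA AMOs, while Slc16a1 is highest under the 5'ss AMO with PDGF-AA, at 0.42 above the control AMO with PDGF-AA.

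The question of whether the Pdgfra oligonucleotides alter the response to PDGF-AA was addressed AMO by AMO. With the control AMO the median difference over the 31 genes was 0.23, against 0.02 over all genes, and 16 genes had a higher level at an unadjusted limma p under 0.05 (3.07% of all clusters) and 0 a lower one (1.74%). Arrays did not overlap and were higher with PDGF-AA for 17 genes (17.5% of all clusters) and lower for 1, Ldhb (13.6%). With the pA AMO the median was 0.24, against -0.01, with 15 genes higher and 0 lower at that level (1.17% and 1.2% of all clusters), 19 genes higher without overlap (11.4%) and 2 lower, Pfkfb4 and Eno3 (12.3%). These contrasts share no array, but they use the same estimate of each gene's spread from all 12 arrays. Same-numbered replicates also deviated together across groups, so the gene lists are not independent. In both contrasts 14 genes met the unadjusted rule, which is 87.5% of the control AMO's genes and 93.3% of the pA AMO's. Aldoa and Ldha in the former and Ugp2 in the latter make up the rest, with no difference between the AMOs past an unadjusted p of 0.05 in the interaction test. With the 5'ss AMO the median was 0.02, against -0.01, and 0 genes met the rule in either direction, where 0.808% of all clusters were higher and 0.835% lower. There, 2 genes (Pgk1 and Pygl) were higher without overlap, against 9.13% of all clusters, and 4 (Aldoc, Pfkfb4, Eno2 and Pdk2) lower, against 10.5%. In limma 0 clusters of all 21789 passed an adjusted p of 0.05 under any of the 3 AMOs, and the smallest adjusted p was 0.467 with the control AMO and 1 with the others. At an unadjusted p under 0.05 there were 1049, 517 and 358 clusters with the control, pA and 5'ss AMOs. In the paired fit more of all clusters met that level. There 16, 18 and 0 of the 31 genes were higher under these AMOs, against 7.6%, 2.62% and 2.21% of all clusters. Lower were 0, 1 and 1, against 5.14%, 3.28% and 2.32%. The moderation that follows the intensity trend called 3 genes with the control AMO, Slc16a3, Pgk1 and Tpi1, where 0.0459% of all clusters were called higher.

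Single arrays weigh on these counts (an AMO alone is one without PDGF-AA). In the fits named next with fewer genes, the share of all clusters that met the rule fell as well. Without replicate 2 of the control AMO alone, the control AMO's 16 genes became 8. The pA AMO's 15 became 7 without replicate 1 of the pA AMO alone, where the median was 0.15, and 8 without replicate 1 of the pA AMO plus PDGF-AA. Under the 5'ss AMO the median turned to -0.06 without replicate 1 of the 5'ss AMO alone and to 0.00 without replicate 2 of the 5'ss AMO plus PDGF-AA, and was 0.04 without replicate 2 of the 5'ss AMO alone. Median centring gave 0.01 for the 5'ss AMO, where it moved all clusters by a median of -0.011. It made the control AMO's 16 genes 9, against 1.48% of all clusters. The pA AMO's 15 genes became 10, against 0.927%.

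**Figure D3:**
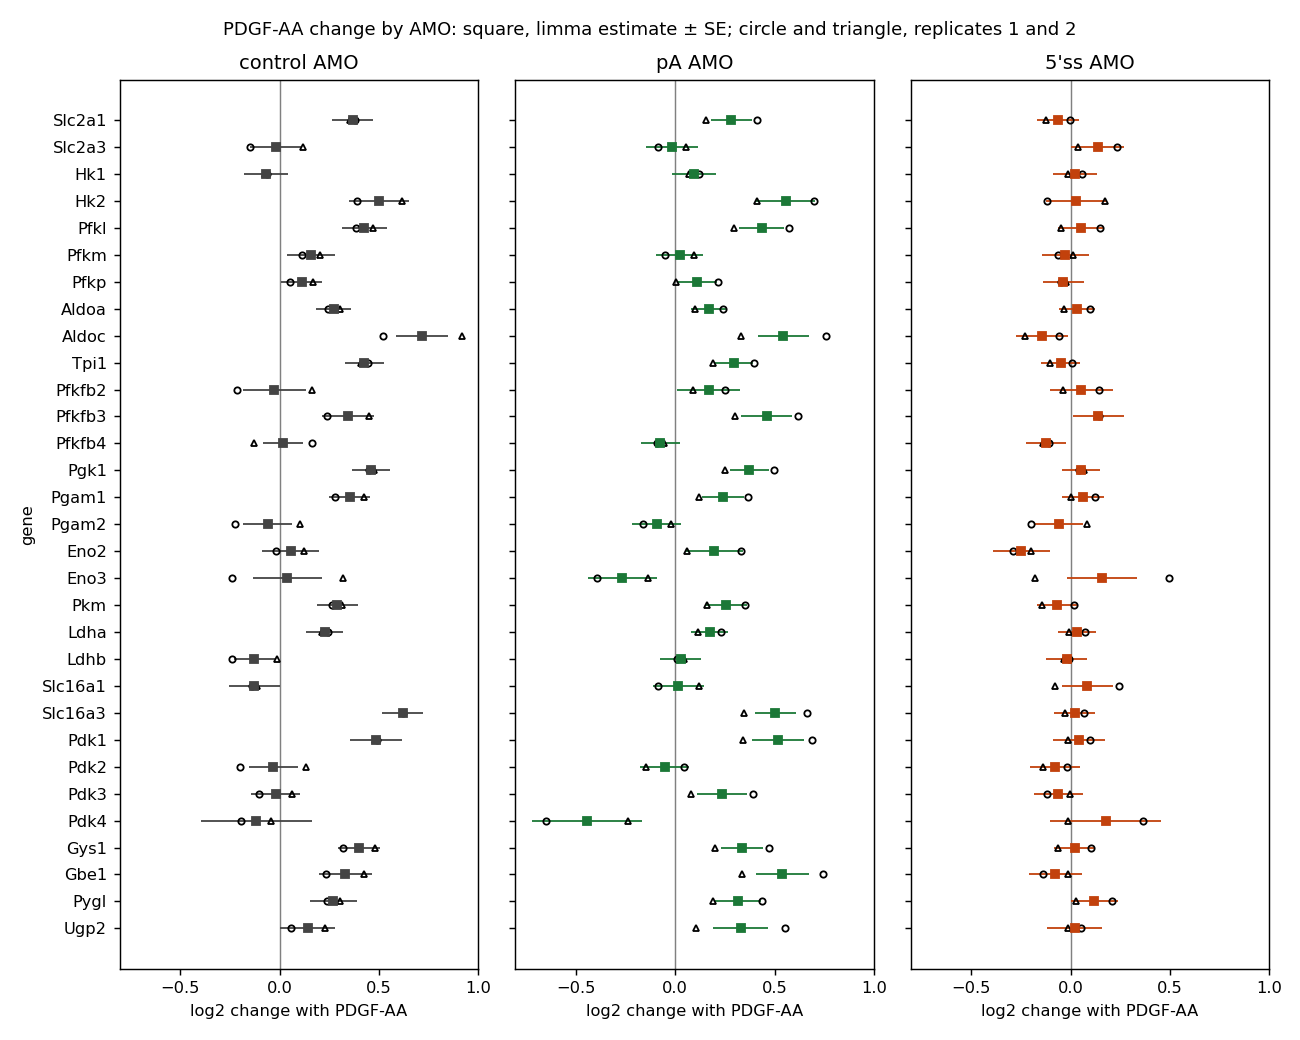
PDGF-AA difference (log2, with minus without) of the 31 genes under each AMO, with a square for limma's value and a bar for its SE, and the 2 replicates as separate points. Most squares lie to the right of 0 with the control AMO (22 of 31) and the pA AMO (25), and around 0 with the 5'ss AMO (18). Of all genes measured, 54.45%, 46.63% and 47.57% were above 0 under the control, pA and 5'ss AMOs.

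The 5'ss AMO was compared with the control AMO at each dose. Without PDGF-AA, the 5'ss AMO had 27 of 31 genes above the control AMO, against 50.4% of all genes, with a median of 0.14 (0.00 over all genes). At an unadjusted limma p under 0.05, 6 genes were higher: Aldoc by 0.48, Hk2 by 0.46, Pfkfb3 by 0.36, Gbe1 by 0.35, Slc16a3 by 0.30 and Pgk1 by 0.24. That compares with 1.07% of all clusters, and the 0 genes lower with 0.996%. The arrays did not overlap and were higher for 20 genes (12.6% of all clusters), and lower for 0 (11.1%). The count of 6 became 3 under median centring, where 0.688% of all clusters met the rule. It was also smaller without replicate 2 of the 5'ss AMO alone, where the median was 0.09, or replicate 2 of the control AMO alone. In limma 0 of 21789 clusters passed the adjusted threshold here, with 450 at an unadjusted p under 0.05, and the paired fit called 1 cluster, none of the 31 genes.

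With PDGF-AA in both groups most genes were on the other side of 0. The 5'ss AMO had 21 of 31 genes below the control AMO and 10 above it, where 42.9% of all genes were above it. The median of the 31 genes was -0.07, against -0.03 over all genes. Under median centring of the arrays that median was -0.02, where all clusters moved by a median of 0.044. The 4 genes named next became 1 under it, against 1.89% of all clusters. Lower at an unadjusted limma p under 0.05 were 4 genes, Aldoc at -0.39, Tpi1 at -0.35, Slc16a3 at -0.30 and Slc2a1 at -0.26, where 3.52% of all clusters were lower. Higher was 1 gene, Slc16a1, by 0.42 (2.48% of all clusters). Without overlap 14 genes were lower (17.7%) and 5 higher (12.5%). The median was -0.13 without replicate 1 of the control AMO plus PDGF-AA and -0.11 without replicate 2 of the 5'ss AMO plus PDGF-AA. In either of those fits, and without replicate 2 of the control AMO plus PDGF-AA, the 4 lower genes became 2. Slc16a1 differed by 0.63 in replicate 1 and 0.20 in replicate 2, and no longer met the rule without replicate 1 of the control AMO plus PDGF-AA or replicate 1 of the 5'ss AMO plus PDGF-AA. The smallest adjusted p over all clusters was 0.0601, and the paired fit called 22 clusters, none of the 31 genes.

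The pA AMO was compared with the control AMO in the same way. Without PDGF-AA the median over the 31 genes was 0.06, with Pgam1 (0.25, SE 0.10) and Eno3 (0.41, SE 0.17) higher at an unadjusted limma p under 0.05, 2 genes where 0.785% of all clusters met the rule. They became 0 under median centring and without replicate 2 of the control AMO alone or of the pA AMO alone, and 1 without replicate 1 of the pA AMO alone or either pA array with PDGF-AA. The 0 genes lower compare with 0.707%. Arrays did not overlap and were higher for 8 genes (10.5% of all clusters). In the same contrast 20 of 21 myogenic markers were above 0, with a median of 0.43, and Eno3 is the enolase of muscle. The centred myogenic score was 0.56 and 0.04 on the pA arrays without PDGF-AA and 0.31 and -0.47 on the control arrays. Its part in the Eno3 value was not tested. With PDGF-AA the median was 0.06, with Gbe1 (0.33) and Pdk3 (0.29) higher at that level (1.82% of all clusters), 9 genes higher without overlap (12.3%) and 1 lower, Tpi1 (19.2%). The 2 genes became 0 without either control array with PDGF-AA or replicate 1 of the pA AMO plus PDGF-AA, and 1 without either control array alone or replicate 2 of the pA AMO plus PDGF-AA. That median was 0.10 under median centring, which moved all clusters by a median of 0.046. It was 0.01 under a repeated quantile normalization, which moved them by a median of 0.01. It was 0.01 without replicate 1 of the control AMO plus PDGF-AA, 0.15 without replicate 2 of the control AMO plus PDGF-AA and 0.10 without replicate 1 of the pA AMO plus PDGF-AA. The median without PDGF-AA was 0.03 under median centring, which moved all clusters by a median of -0.027. That median without PDGF-AA was 0.00 without replicate 2 of the pA AMO alone. It was 0.03 without replicate 1 of the control AMO alone and 0.14 without replicate 1 of the pA AMO alone.

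The difference between the PDGF-AA responses was tested directly as an interaction. The response with the 5'ss AMO minus that with the control AMO was below 0 for 23 of 31 genes and above 0 for 8. Of all genes, 45.0% were above 0. The median of the 31 genes was -0.20, against -0.02 over all genes. At an unadjusted limma p under 0.05 the response difference was lower for 10 genes, against 1.97% of all clusters, and higher for 0, against 0.982%. Aldoc had -0.86 (SE 0.18), Slc16a3 -0.60 (SE 0.15) and Tpi1 -0.48 (SE 0.14), and the others were Hk2, Pdk1, Slc2a1, Pgk1, Gys1, Pfkl and Pkm. Both replicates gave a value below 0 for 22 genes (28% of all clusters). After adjustment 0 passed, with a smallest adjusted p of 1 in limma and 0.467 in the paired fit. Under median centring the 10 genes became 3, against 0.978% of all clusters. They were also fewer without replicate 2 of the 5'ss AMO alone, of the control AMO alone or of the control AMO plus PDGF-AA. This contrast uses the same control and 5'ss arrays as the comparisons within each dose, so its values and theirs are not separate evidence.

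The response with the pA AMO minus that with the 5'ss AMO had a median of 0.20 and was above 0 for 26 genes, against 49.9% of all genes. Of the 26, 9 had an unadjusted limma p under 0.05 (0.909% of all clusters). Aldoc (0.69), Gbe1 (0.62) and Hk2 (0.53) had the largest values of the 9. This interaction uses the same 5'ss arrays as the 5'ss minus control interaction, so their values are not separate evidence. The count was 3 without replicate 1 of the pA AMO alone, 4 without replicate 1 of the pA AMO plus PDGF-AA or replicate 2 of the 5'ss AMO alone, and 5 without either 5'ss array with PDGF-AA. It was 4 under median centring, against 0.785% of all clusters. The median was 0.30 without replicate 2 of the pA AMO alone. The pA minus control interaction had a median of -0.02, and 0 of the 31 genes met the unadjusted rule, where 0.652% of all clusters were higher and 1.94% lower. That median lay between -0.10 and 0.05 over the 12 fits that leave out an array, so it has no settled direction. It was 0.05 under median centring, which moved all clusters by a median of 0.073.

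Adipocyte markers also had unequal values in these groups. Their median PDGF-AA difference was -0.31 with the control AMO (8 of 11 below 0), -0.31 with the pA AMO (9 of 11) and 0.50 with the 5'ss AMO (9 of 11 above). The centred adipocyte score was 0.88 and 0.18 on the 5'ss arrays with PDGF-AA, -0.73 and 0.27 on the control arrays with PDGF-AA, and -0.63 and 0.09 on the pA arrays with it. Replicates differed in it by as much as the groups. Myogenic markers had a median of 0.06, -0.36 and 0.17 with the control, pA and 5'ss AMOs, and 20 of 21 were below 0 with the pA AMO. In the averaged PDGF-AA comparison 3 of 9 smooth muscle and pericyte markers were lower at an unadjusted limma p under 0.05, Acta2 (-0.72), Abcc9 (-0.30) and Kcnj8 (-0.27), and 0 higher, where 1.66% of all clusters were lower. In the 5'ss minus control interaction 7 of the 9 were above 0, with a median of 0.18. Their centred score ran from -0.20 to -0.01 on the control and pA arrays with PDGF-AA, 0.05 and 0.06 on the 5'ss arrays with it, and -0.08 to 0.21 on the arrays without it. Of 8 macrophage markers, 3 were lower at that level, Cd14 (-0.26), Lyz2 (-0.28) and Cd68 (-0.16), and 0 higher, while Ptprc and Adgre1 lay below the dim level and the list's median was 0.02. Lyz2 was 1.10 higher with the 5'ss than with the control AMO under PDGF-AA, from 2 arrays per group. In that contrast 4 of the 8 markers were above 0 and 4 below, with a median of 0.003. The centred macrophage score ran from -0.15 to 0.08 with PDGF-AA and from -0.05 to 0.09 without it. The part of any of these lists in the results above was not tested.

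Other genes of the pathway and its neighbours were read in the same contrast. Among 32 other genes of glycolysis, glucose and lactate transport and glycogen, the averaged median was 0.01 with 18 above 0, and 3 were higher and 1 lower at an unadjusted limma p under 0.05 (1.73% and 1.66% of all clusters). Pgm1, which links glucose-1-phosphate to glucose-6-phosphate, had 0.21 (SE 0.06). Emb, a partner protein of lactate transporters, had -0.18 (SE 0.06), and the transporter gene Slc16a7 (MCT2) had the lowest value, -0.18 (SE 0.10). Only 18 of these 32 genes were above the dim level.
The routes that use the same carbon had medians near 0. In pyruvate oxidation 2 of 10 genes were above 0 (median -0.03). There Pdp1, the phosphatase that reverses the action of the pyruvate dehydrogenase kinases, had -0.27 (SE 0.07; adjusted p = 0.695 in limma), while Dlat, a subunit of the complex, had -0.09 (SE 0.06). In the tricarboxylic acid cycle 3 of 16 were above 0 (median -0.03), with ends at -0.10 for Suclg1 and 0.02 for Sdha. The pentose phosphate genes had a median of 0.03 (4 of 7 above 0) and the genes of gluconeogenesis -0.02 (2 of 7).
Known targets of hypoxia that lie outside glycolysis were read as a further list. Of 17, 16 had an averaged difference above 0 (median 0.14) and 9 were higher at an unadjusted p under 0.05 (1.73% of all clusters). Car9, a carbonic anhydrase that manages acid at the cell surface, had 0.52 (SE 0.09; adjusted p = 0.336 in limma and 0.0481 in the paired fit, a call lost when any 1 of the 12 arrays was left out, at adjusted p-values of 0.0617 to 0.208). Bnip3, which promotes removal of mitochondria, had 0.36 (SE 0.06). Under the control, pA and 5'ss AMOs the list's medians were 0.26, 0.25 and -0.02, with 16, 15 and 7 of 17 above 0, and the 5'ss AMO without PDGF-AA was above the control AMO in 16 of 17, with a median of 0.22.
Among 22 regulators the averaged median was 0.04. Egln3 and Egln1, the prolyl hydroxylases that mark HIF proteins for destruction and are themselves HIF targets, had 0.50 (SE 0.08) and 0.27 (SE 0.05), with 0.85, 0.45 and 0.21 for Egln3 under the control, pA and 5'ss AMOs. Hif1a itself had 0.08 (SE 0.06), and the lowest regulator, Ppargc1a, had -0.11 (SE 0.08). None of the genes on these lists passed the adjusted threshold in limma's unpaired fit.

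**Figure D4:**
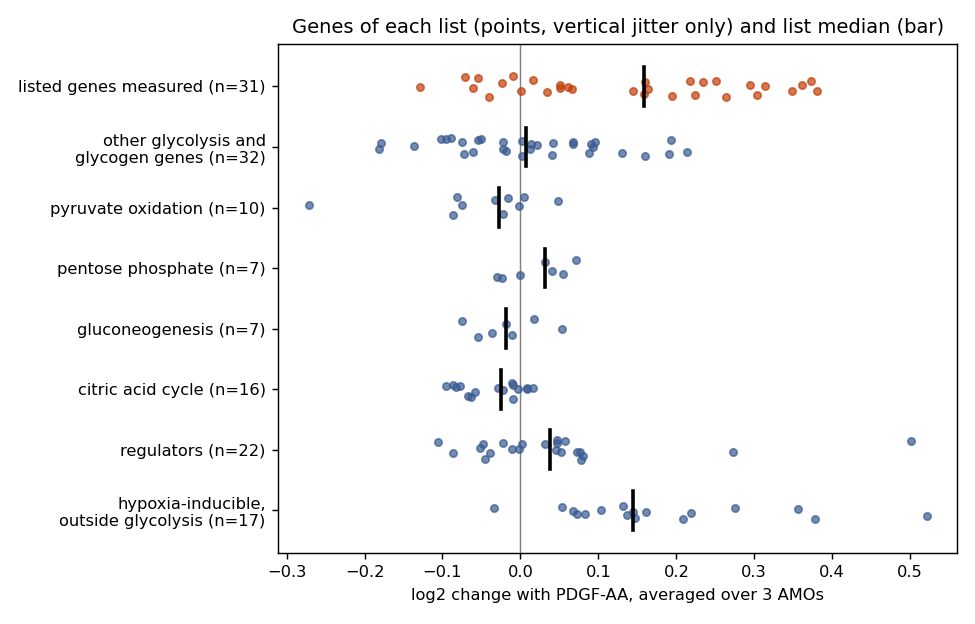
Averaged PDGF-AA difference (log2, with minus without) of each gene of the listed set and of each neighbouring list, with a line at each list's median. The listed genes (median 0.16) and the hypoxia targets outside glycolysis (0.14) lie mostly above 0, and pyruvate oxidation (-0.03) and the tricarboxylic acid cycle (-0.03) lie just below it.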

How the data were processed

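The 12 arrays are Affymetrix Mouse Gene 1.0 ST arrays, 2 per group, each from pooled cells of 2 mice. The deposited values are on the log2 scale. The submitters' processing notes name RMA and Affymetrix Expression Console without versions. RMA subtracts background, quantile-normalizes arrays and summarises probes, so differences are relative to the bulk of genes and can be understated. The number of arrays limits the precision.

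Of 35556 transcript clusters, 21789 carry exactly 1 symbol, 1621 carry several and 12146 are not listed in the platform annotation. Symbols were matched to RefSeq of GRCm38.p6 (21698 found, 0 changed), which also gave the promoter sequences. Where a gene has several clusters the brightest was used. Groups were fitted with limma 3.58.1 in R 4.3.3 as a means model of 6 groups, with 6 residual degrees of freedom and Benjamini-Hochberg adjustment at 0.05. The fit was tested on simulated data. Values in every array are given for the 2 genes of each role with the smallest p for PDGF-AA averaged over AMOs, for any gene whose arrays separate in opposite directions under different AMOs, and for Slc16a1, chosen after its values were seen.

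Same-numbered replicates deviated together: in 15 of 15 pairs of groups their deviations correlated above 0.1 (0.197 to 0.613), and each of the 12 arrays was closest to 1 with its own number (12 of 12). The labels do not say what a number shares, so this is a hint from the data. Paired values come from limma with the replicate number as a block. Alternatives were another normalization, median centring, a filter on dim clusters, trend and robust moderation, array weights, the block, and leaving out each array. The listed genes, the other lists and the tests were chosen with earlier results of these data known.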

Additional observations from a re-analysis of the deposited data

Results flagged for a closer look

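Aldoc had unequal PDGF-AA differences under the AMOs. The response with the 5'ss AMO (-0.14) minus that with the control AMO (0.72) was -0.86 on the log2 scale (adjusted p = 1 in limma, and adjusted p = 0.467 in the paired fit). The response with the pA AMO (0.55) minus that with the 5'ss AMO was 0.69 (adjusted p = 1 in limma, and adjusted p = 0.875 in the paired fit). Neither passes the adjusted threshold, and both had an unadjusted p under 0.05. Both use the same 5'ss arrays, so they are not separate evidence. Groups of 2 arrays are too small to test a single array as an outlier.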

How the results depend on the processing

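With 2 arrays per group, the fit called 0 of the 31 genes in every comparison, also when any 1 array was left out. The exceptions among the other settings were the averaged PDGF-AA comparison, with 5 genes called under trend and robust moderation and 1 with the replicate block, and the control AMO, with 3 under trend and robust moderation. The replicate block changed no other call of the 31 genes. A fit of only the groups compared does not exist for the averaged comparison, which uses all groups.

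Medians over the 31 genes turned or touched 0 for the 5'ss AMO, for pA against control without PDGF-AA and for the pA minus control interaction, and kept their side of 0 in the other comparisons. Without 1 array at a time they ran from 0.12 to 0.17 for averaged PDGF-AA, 0.17 to 0.28 with the control AMO, 0.15 to 0.32 with the pA AMO and -0.061 to 0.042 with the 5'ss AMO. The pA minus control AMO medians ran from 0 to 0.14 without PDGF-AA and from 0.008 to 0.149 with it, and the 5'ss minus control AMO medians from 0.086 to 0.166 and from -0.131 to -0.05. The interactions ran from -0.10 to 0.05 (pA minus control), -0.27 to -0.14 (5'ss minus control) and 0.13 to 0.30 (pA minus 5'ss). Median centring gave 0.18 with the control AMO, -0.022 for 5'ss against control with PDGF-AA and 0.052 for the pA minus control interaction (-0.021 as reported). In these it moved all clusters by medians of -0.052, 0.044 and 0.073. The other cluster of Hk1, chosen after seeing the data, gave 0.29 for pA minus 5'ss.

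Counts at an unadjusted p under 0.05 were also read under each setting, an addition made after seeing the data. Median centring lowered the control AMO's 16 genes to 9 and the 6 genes higher with the 5'ss AMO without PDGF-AA to 3. The 4 lower with PDGF-AA became 1, and the interactions' 10 and 9 became 3 and 4. The share of all clusters meeting the rule fell as well, to 1.48%, 0.688%, 1.89%, 0.978% and 0.785% in that order. Trend and robust moderation raised the 6 to 10, the 4 to 9, and the interactions' 10 and 9 to 14 and 12. There the shares were 0.927%, 3.24%, 1.61% and 1.08%, against 1.07%, 3.52%, 1.97% and 0.909% in the fit reported above. A repeated quantile normalization raised the 4 to 9, where 5.13% of all clusters were lower. The replicate block gave 13 genes for each of these interactions, where 4.81% and 2.31% of all clusters met the rule. Without 1 array the share of all clusters meeting a rule also moved, up in some fits and down in others.

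Of single genes in the averaged comparison, Eno2 turned to -0.013 under median centring, which moved all clusters by a median of -0.014. Without 1 array, 23 of 372 values changed sign, all in 6 genes near 0: Hk1 (-0.016 to 0.047), Eno2 (-0.073 to 0.076), Slc2a3 (-0.018 to 0.086), Pfkfb2 (-0.001 to 0.132), Eno3 (-0.104 to 0.057) and Slc16a1 (-0.055 to 0.037). Of the 31, Pgam2 is the gene limited by dim signal.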
